A study of Mus musculus with 4 samples.

Results

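The 8 genes described here encode secreted ligands of the transforming growth factor beta (TGF-beta) superfamily. They are the TGF-betas Tgfb1, Tgfb2 and Tgfb3, the activin subunits Inhba and Inhbb, and the bone morphogenetic proteins (BMPs) Bmp2, Bmp4 and Bmp7. They were taken by gene symbol from the 31053 features of the count matrices, and all 8 had at least 1 unique molecular identifier (UMI, a tag that marks 1 captured RNA molecule) in each of the 4 libraries. The cells were the stromal vascular fraction of inguinal white fat (iWAT), that is, the cells of the fat pad other than adipocytes. They came from 7 control C57BL/6 mice, pooled, and from 8 pooled mice labelled iAdFASNKO, a name known for an inducible deletion in adipocytes of Fasn, the fatty acid synthase gene. The labels do not spell the name out, nor do they give the driver, the inducing agent, or the age and sex of the mice. Magnetic bead sorting parted the cells of a pool by immune lineage markers, present in Lin+ and not in Lin-, which gave the 4 libraries control Lin+, control Lin-, iAdFASNKO Lin+ and iAdFASNKO Lin-.

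Each combination of genotype and fraction was sequenced once, from pooled mice, so genotypes were compared as values with no test. The intervals given are 95% and cover counting error only, not the spread between mice. Anything else that differed between the pools, such as the strain background, the dissociation or the capture, cannot be told apart from the genotype. Only 1 cell met the adipocyte gate, so the deletion itself could not be checked. Fasn in Lin- progenitors was 44.6 CPM (UMIs of a gene per 1000000 UMIs) in control and 28.3 in iAdFASNKO.

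All these ligands are made as precursors, and the mature part acts as a dimer. A dimer brings together type II and type I receptor kinases on the target cell, and the type I receptor phosphorylates SMAD proteins that enter the nucleus. TGF-betas and activins signal mainly through SMAD2 and SMAD3, and BMPs through SMAD1, SMAD5 and SMAD9. TGF-betas are secreted in a latent complex bound to matrix proteins and must be released by integrins, thrombospondin or proteases, whereas activins are held back by follistatin and BMPs by proteins such as Noggin and Chordin. In fat, TGF-beta and activin A are known to restrain the differentiation of adipocyte progenitors, BMP4 and BMP2 to commit progenitors to the adipocyte lineage, and BMP7 to favour brown and beige adipocytes.

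The promoters of 4 ligands that the results below turn on are shown first, because they differ in base composition and in the short motifs they hold. Each line gives the 250 bases before the annotated start, read on the gene's own strand, from RefSeq on build GRCm38.p6. Capitals mark each match, on either strand, to 1 of the 7 motifs searched. These were the cyclic AMP response element (TGACGTCA), the AP-1 site (TGANTCA), the E-box (CACGTG), the box spelled CCAAT, the GC box (GGGCGG), the TATA box (TATAAA) and a SMAD-binding element (CAGAC). No motif contains another. Positions are counted back from the start, so that base -1 is the last base shown.
Tgfb1: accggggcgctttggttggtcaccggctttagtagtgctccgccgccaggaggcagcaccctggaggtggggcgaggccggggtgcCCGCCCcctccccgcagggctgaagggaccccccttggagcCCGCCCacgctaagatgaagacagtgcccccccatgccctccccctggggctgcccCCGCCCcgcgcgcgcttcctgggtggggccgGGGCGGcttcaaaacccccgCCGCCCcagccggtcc
Tgfb2: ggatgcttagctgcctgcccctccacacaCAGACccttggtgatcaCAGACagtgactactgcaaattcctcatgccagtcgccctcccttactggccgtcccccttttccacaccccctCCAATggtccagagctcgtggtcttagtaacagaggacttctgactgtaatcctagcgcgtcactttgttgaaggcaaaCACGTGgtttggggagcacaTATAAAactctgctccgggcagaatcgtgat
Inhba: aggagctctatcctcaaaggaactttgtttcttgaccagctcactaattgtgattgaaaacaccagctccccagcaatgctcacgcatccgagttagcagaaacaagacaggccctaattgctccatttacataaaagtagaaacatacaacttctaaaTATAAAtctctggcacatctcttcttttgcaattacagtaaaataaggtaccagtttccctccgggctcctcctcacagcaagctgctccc
Bmp4: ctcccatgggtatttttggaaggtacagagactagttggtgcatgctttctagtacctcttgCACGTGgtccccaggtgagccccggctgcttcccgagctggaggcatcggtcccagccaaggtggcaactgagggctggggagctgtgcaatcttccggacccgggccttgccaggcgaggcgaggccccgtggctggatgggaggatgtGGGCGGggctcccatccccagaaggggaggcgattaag
Tgfb1 is at chr7:25686752-25687001 (plus strand), Tgfb2 at chr1:186705990-186706239 (minus strand), Inhba at chr13:16011601-16011850 (plus strand) and Bmp4 at chr14:46390670-46390919 (minus strand). An entry was found for 5 of the 8 ligands. The fifth is Inhbb. Tgfb3, Bmp2 and Bmp7 are named only.

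The Tgfb1 window was 75.2% G and C, against a mean of 53.2% over the 32851 windows of all genes, and held 5 GC boxes and no TATAAA. The Tgfb2 window was 53.6% G and C, with TATAAA at bases -31 to -26, CACGTG at -51 to -46, CCAAT at -130 to -126 and CAGAC at 2 positions. The Inhba window was 43.2% G and C, and its single match was TATAAA at -91 to -86. The Bmp4 window was 63.2% G and C, with CACGTG at -188 to -183 and a GC box at -38 to -33. Among all windows, 32.7% held a GC box, 12.4% TATAAA, 6.02% CACGTG, 33.8% CCAAT, 42.2% CAGAC, 6.75% TGANTCA and 1.55% TGACGTCA. A match is a description of these letters and not evidence of a bound factor.

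After filtering, 14701 cells remained, between 2888 and 4425 in each library, with total counts of 19445334 to 29082989 UMIs. A cell was assigned to the class for which the highest share of fixed markers was on, with at least 3 markers on. This placed 12108 cells in a class, 6536 of them progenitors (Pdgfra UMIs in 88.28% of these and in 2.584% of other cells), 1324 mural cells, 391 endothelial cells, 1540 B cells, 962 T cells and 231 macrophages. The gate for blood endothelium took 240 cells of a cluster whose leading genes include Prox1, a lymphatic gene, and 148 of a cluster led by vessel genes such as Vwf and Plvap, so the class is called endothelial here. Mural cells had Myh11 in 98.19% of cells and the pericyte gene Kcnj8 in 5.891%, so they were mainly contractile. Across libraries, 209 barcode sequences occurred more than once and 488 kept cells carried one of them. Levels are CPM of the summed UMIs of a class. The reads are captured at the 3' end of transcripts and transcript lengths were not used, so each ligand is compared between classes and libraries and not with another ligand.

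The classes that carried each ligand differed from ligand to ligand. Progenitors were the most numerous class and held 67.82% of all Tgfb2 UMIs, 63.77% of Bmp4, 51.72% of Bmp7, 47.17% of Bmp2 and 44.47% of Inhbb. Mural cells held 77.72% of Inhba and 46.52% of Tgfb3, whereas Tgfb1 was spread over progenitors (28.31%), B cells (21.13%) and T cells (10.25%). For a test, the UMIs of each class were summed in each pool and 1 class was set against the mean of the other classes with edgeR's quasi-likelihood test in 8 classes, the 2 pools being the samples. Genes were called at an adjusted p under 0.05 and at least 1.5-fold, over 12387 genes. Inhbb did not pass the filter on low counts, so 7 of the 8 ligands were tested. In mural cells 4 of 7 were called higher, where 27.9% of all genes were, and in progenitors 6 of 7, where 29.5% of all genes were. In endothelial cells 2 of 7 were called (22.1% of all genes), in group 2 innate lymphoid cells (ILC2) 3 of 7 (9.11%), in macrophages 2 of 7 (21.6%), in T cells 2 of 7 (18.3%), in B cells 1 of 7 (20.6%) and in Schwann cells 1 of 7 (19.6%).

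**Figure D1:**
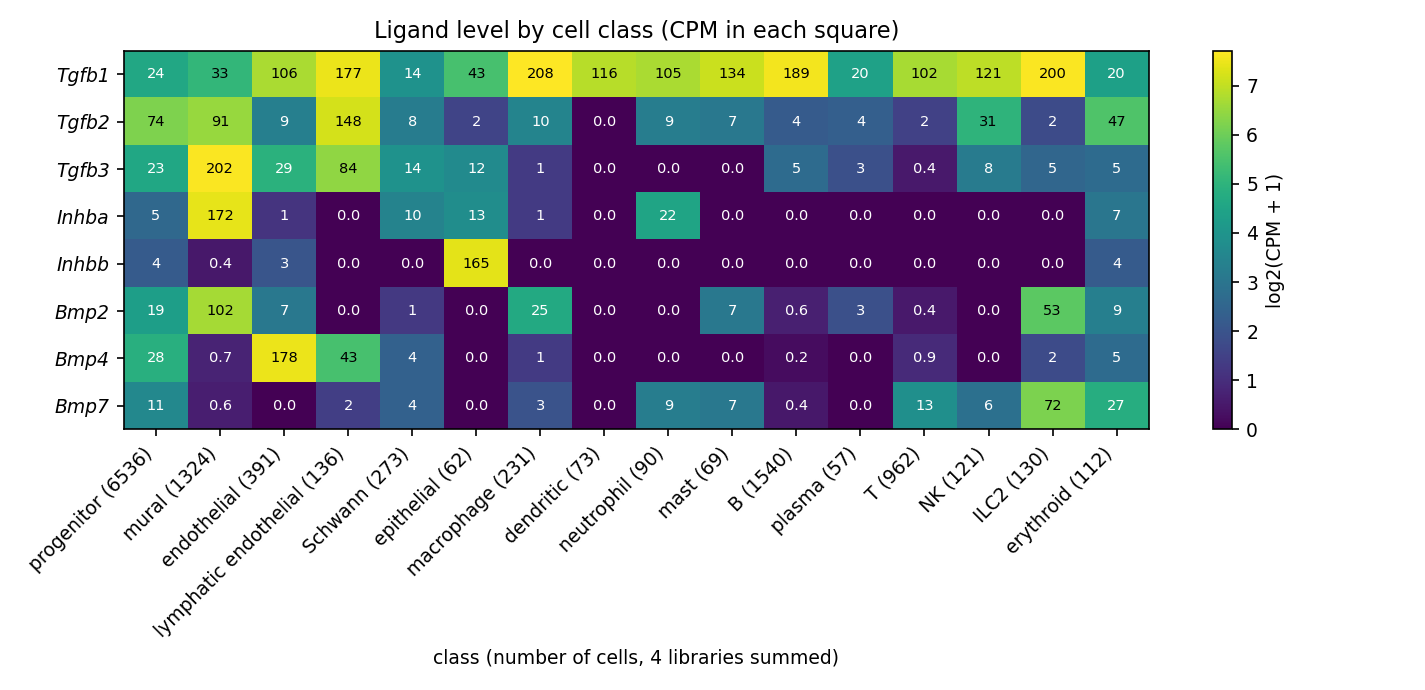
Heat map of the level of each ligand (rows) in each cell class (columns, with the number of cells) over all 4 libraries summed; the number in a square is CPM and its colour log2(CPM + 1). Tgfb1 is highest in macrophages, ILC2 and B cells, with lymphatic endothelium next. Tgfb3, Inhba and Bmp2 are highest in mural cells, Inhbb in epithelial cells, Bmp4 in endothelial cells and Bmp7 in ILC2.

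Tgfb1 (ENSMUSG00000002603, chr7:25687002-25705077 on mm10, plus strand), whose product is known for holding immune responses in check and for fibrosis, was highest in some immune classes and in lymphatic endothelium. Over all libraries it stood at 208 CPM in macrophages (95% interval 184.5 to 233.6), 200.1 CPM in ILC2 (159.4 to 248.1), 189 CPM in B cells (177.2 to 201.5) and 177.2 CPM in lymphatic endothelium, and neighbours in this order were within each other's counting intervals. Endothelial cells (105.8 CPM) stood beside T cells (102.4 CPM), and plasma cells were lower, at 20.09 CPM. The level in the control and iAdFASNKO pools was 222.0 and 179.9 CPM in macrophages, 210.2 and 185.0 CPM in B cells, 181.1 and 225.6 CPM in ILC2 and 118.1 and 97.97 CPM in T cells. Each of these was called above the other classes by edgeR, with adjusted p = 2.55e-08 for macrophages, 4.9e-09 for B cells, 1.47e-05 for ILC2 and 0.00218 for T cells. The call in T cells was lost when any 1 of the 4 libraries was left out of a fit with the libraries as samples. Progenitors stood at 25.4 and 20.48 CPM, below the other classes in the same edgeR test (adjusted p = 1.5e-08), and mural cells in the Lin- libraries at 32.91 and 33.42 CPM.

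Tgfb2 (ENSMUSG00000039239, chr1:186622792-186705989, minus strand), a TGF-beta known for roles in mesenchyme and heart development, was highest in stromal classes over all libraries. Lymphatic endothelium stood at 147.9 CPM (118.3 to 182.7), mural cells at 91.0 CPM (84.19 to 98.22) and progenitors at 73.61 CPM (71.33 to 75.94), and these intervals did not overlap. Cells of the erythroid gate followed at 46.96 CPM on 26 UMIs, then natural killer (NK) cells at 31.22 CPM on 15 UMIs. The NK UMIs were all in the iAdFASNKO pool, at 101.7 CPM (56.93 to 167.8), an interval that holds the mural level of that pool. The pool levels were 80.37 and 97.5 CPM in mural cells and 36.6 and 134.9 CPM in progenitors, both called by edgeR (adjusted p = 1.21e-10 and 1.4e-10). With both fractions summed, mural cells were above progenitors in the control pool and below them in the iAdFASNKO pool. Mural cells came almost wholly from Lin- (330 control and 967 iAdFASNKO cells, with 13 and 14 in Lin+). The iAdFASNKO progenitor sum joined 226.8 CPM from Lin+ with 72.96 CPM from Lin-. Within Lin- alone, mural cells were above progenitors in both genotypes, by the library levels given further below. In B cells Tgfb2 was at 0 of 772195 UMIs in control Lin+, where 3 counts would be 3.885 CPM, and at 4.326 CPM in iAdFASNKO Lin+. With both fractions summed, the counting interval in B cells reached 4.615 CPM in the control pool, on 0 UMIs. The iAdFASNKO pool stood at 4.292 CPM (2.543 to 6.783), so the intervals of the pools overlapped.

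Tgfb3 (ENSMUSG00000021253, chr12:86056745-86079041, minus strand) was highest in mural cells, at 202.1 CPM (191.9 to 212.8), followed by lymphatic endothelium at 84.28 CPM. Endothelial cells (29.09 CPM) and progenitors (22.86 CPM) came next and their intervals overlapped. The pools gave 168.0 and 223.0 CPM in mural cells, 29.71 and 28.49 CPM in endothelial cells and 23.67 and 21.52 CPM in progenitors. All 3 classes were called by edgeR, with adjusted p = 3.28e-14, 0.000117 and 1.86e-05. Within the endothelial class, Tgfb3 was 41.25 CPM in the cluster with Prox1 among its leading genes (88 UMIs) and 4.622 CPM in the cluster led by Vwf (5 UMIs).

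Inhba (ENSMUSG00000041324, chr13:16011851-16031621, plus strand) encodes the subunit whose homodimer is activin A. It was mural in these libraries, at 171.7 CPM (162.3 to 181.5), against 21.79 CPM in neutrophils, which rests on 5 UMIs, and 12.79 CPM in epithelial cells. Both pools gave a like level in mural cells, 173.8 and 170.3 CPM (edgeR adjusted p = 8.23e-14). Progenitors stood at 4.507 and 5.985 CPM and were still called above the mean of the other classes (edgeR adjusted p = 0.000854), many of which were at or near 0. That call in progenitors was lost without the control Lin+ library. In Schwann cells the levels of 15.03 and 5.295 CPM were called (edgeR adjusted p = 0.013), but that call was lost with looser or stricter cell filters, with called doublets kept, with a stricter gate, and without control Lin+, control Lin- or iAdFASNKO Lin-.

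Inhbb (ENSMUSG00000037035, chr1:119415465-119422248, minus strand) encodes the subunit of activin B and had only 443 UMIs in all kept cells. Its highest level was in the 62 epithelial cells, at 165.3 CPM (141.3 to 192.3) on 168 UMIs. The pools gave 171.5 CPM in control (155 UMIs) and 115.7 CPM in iAdFASNKO (13 UMIs). Most UMIs of this class came from 29 control Lin- cells, at a median of 29251 UMIs per cell, so the level is largely that of 1 library. Progenitors stood at 3.667 CPM. Among the epithelial cells, Epcam was present in 98.39%, Krt8 in 93.55% and Krt14 in 6.452%.

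Bmp2 (ENSMUSG00000027358, chr2:133552159-133562885, plus strand) was highest in mural cells, at 101.6 CPM (94.42 to 109.2), then in ILC2 at 53.04 CPM (33.24 to 80.3), macrophages at 24.81 CPM and progenitors at 18.78 CPM. The pools gave 117.5 and 91.95 CPM in mural cells (edgeR adjusted p = 1.94e-12), 17.61 and 20.72 CPM in progenitors (2.93e-05), 21.87 and 30.72 CPM in macrophages (0.000754) and 25.26 and 90.25 CPM in ILC2 (0.000201). The values for ILC2 rest on few molecules and differed between the pools more than those of the other classes called. In macrophages Bmp2 was no longer called when either Lin+ library was left out, and in ILC2 when iAdFASNKO Lin- was left out or with a stricter gate.

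Bmp4 (ENSMUSG00000021835, chr14:46383520-46390669, minus strand) was the ligand of endothelial cells and progenitors. Endothelial cells stood at 177.6 CPM (163.4 to 192.8), lymphatic endothelium at 43.0 CPM and progenitors at 27.89 CPM, and the intervals of lymphatic endothelium and progenitors overlapped. Lymphatic endothelium was 8.994 CPM in the control pool (3 UMIs) and 88.76 CPM in the iAdFASNKO pool (22 UMIs), so it was below progenitors in control and above them in iAdFASNKO. The pools gave 178.2 and 177.0 CPM in endothelial cells and 35.07 and 15.98 CPM in progenitors, both called by edgeR (adjusted p = 1.29e-13 and 1.44e-08). Both endothelial clusters carried it, at 164.1 CPM in that with Prox1 among its leading genes and 207.1 CPM in that led by Vwf. In mural cells of the Lin- libraries it was at 0.374 and 0.682 CPM, on 1 and 3 UMIs.

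Bmp7 (ENSMUSG00000008999, chr2:172868012-172940321, minus strand) was highest in ILC2, at 72.32 CPM (48.8 to 103.2). The erythroid gate followed at 27.09 CPM (15 UMIs), then T cells at 13.19 CPM and progenitors at 11.17 CPM. Hba-a1 was in 99.11% of the 112 cells of the erythroid gate and in 41.27% of other gated cells, and Alas2 in 66.96% and 1.15%. Whether the ligand UMIs of this gate came from erythroid cells was not tested. The pools gave 75.79 and 67.68 CPM in ILC2, 18.33 and 11.74 CPM in T cells and 8.358 and 15.83 CPM in progenitors, each called by edgeR (adjusted p = 2.1e-06, 0.000218 and 1.84e-05). Of the ILC2, 55.38% carried exactly the minimum number of markers. The call in progenitors was lost when the control Lin+ library was left out. That in T cells was lost with the 4 libraries as samples. It was also lost when control Lin+, control Lin- or iAdFASNKO Lin- was left out of that fit, and held without iAdFASNKO Lin+. A further 436 Bmp7 UMIs, 37.59% of the total, lay in cells of no class, and 86.24% of these were in the cluster led by the interstitial progenitor genes Pi16, Sema3c and Dpp4.

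The genotypes were compared first in progenitors, the class with the most cells. A gene counted as measured if the libraries compared held 20 or more of its UMIs together, and as higher or lower in iAdFASNKO past 1.5-fold. All 8 ligands were measured in progenitors of both fractions. In Lin- progenitors Tgfb2 and Inhba were higher and Inhbb, Bmp4 and Bmp7 lower, that is, 2 of 8 and 3 of 8, where 10.9% of all measured genes were higher and 7.53% lower. In Lin+ progenitors Tgfb2 and Bmp7 were higher and Bmp4 and Inhba lower, that is, 2 of 8 each, where 12.6% of all measured genes were higher and 5.3% lower. The median log2 ratio of the ligands was -0.12 in Lin- and -0.38 in Lin+, against 0.03 and 0.13 for all measured genes. Progenitor depth differed too, with a median of 10684 and 5596 UMIs per cell in control and iAdFASNKO Lin- and 8696 and 6887 in Lin+. The 14 dissociation stress genes (Fos, Jun, heat shock genes) also differed, with 7 of 14 lower in Lin- and 8 of 14 in Lin+ iAdFASNKO and none higher. Their part in the ligand differences was not tested.

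**Figure D2:**
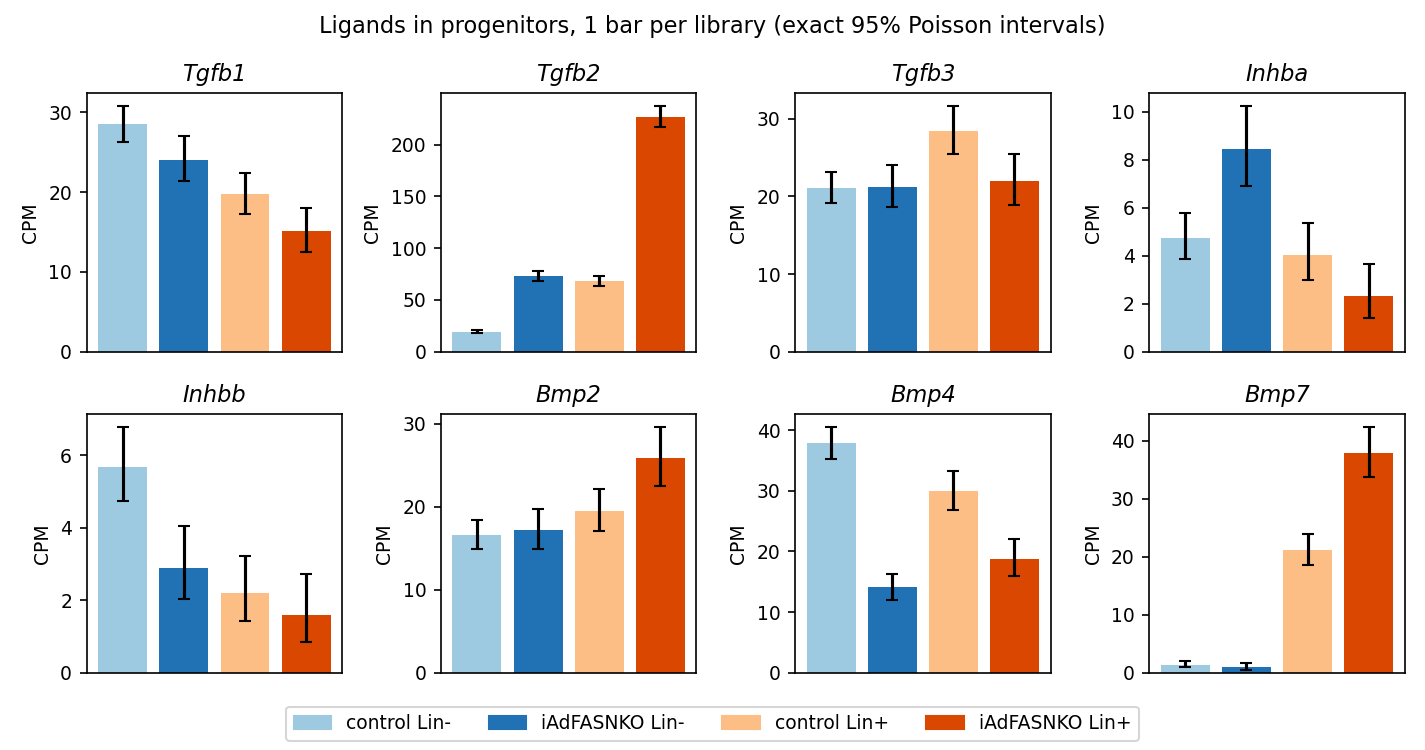
Level of each ligand in progenitors (CPM), 1 bar for each of the 4 libraries, with exact 95% Poisson intervals that cover counting error only. Tgfb2 stands at 72.96 and 226.8 CPM in the iAdFASNKO libraries against 19.45 and 67.92 CPM in control, whereas Bmp4 is lower in both iAdFASNKO libraries.

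Tgfb2 showed the same direction in both fractions. In Lin- progenitors it was 19.45 CPM in control (421 UMIs) and 72.96 CPM in iAdFASNKO (881 UMIs), a ratio of 3.75 (3.34 to 4.22). In Lin+ progenitors it was 67.92 CPM (805 UMIs) and 226.8 CPM (1847 UMIs), a ratio of 3.34 (3.07 to 3.63). Both iAdFASNKO levels were above both control levels, with no overlap of their counting intervals within a fraction. Progenitors with at least 1 Tgfb2 UMI made up 10.87% and 22.85% of cells in control and iAdFASNKO Lin- and 28.40% and 52.22% in Lin+. With each cell thinned to 2000 UMIs these shares were 2.991%, 10.69%, 11.12% and 30.48%. In B cells of iAdFASNKO Lin+, a class that should lack the gene, 0.8313% of cells had a Tgfb2 UMI, at a median of 2518 UMIs per cell. Over the alternatives tried, the ratio ranged from 3.15 to 4.04 in Lin- and from 2.51 to 3.60 in Lin+.

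Bmp4 was lower in iAdFASNKO progenitors of both fractions. It was 37.88 CPM in control Lin- (820 UMIs) and 14.08 CPM in iAdFASNKO Lin- (170 UMIs), a ratio of 0.372 (0.313 to 0.439). In Lin+ it was 29.95 CPM (355 UMIs) and 18.79 CPM (153 UMIs), a ratio of 0.627 (0.516 to 0.760). Both control libraries were above both iAdFASNKO libraries. The ratio ranged from 0.344 to 0.422 in Lin- and from 0.565 to 0.696 in Lin+ over the alternatives, so in Lin+ some of them took it within 1.5-fold.

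Bmp7 depended on the fraction. It was 21.09 CPM in control Lin+ progenitors (250 UMIs) and 37.95 CPM in iAdFASNKO Lin+ (309 UMIs), a ratio of 1.80 (1.52 to 2.13). In Lin- it was 1.386 CPM (30 UMIs) and 0.911 CPM (11 UMIs), and the interval of the ratio, 0.657 (0.297 to 1.35), holds 1. Bmp2 was 16.58 and 17.23 CPM in control and iAdFASNKO Lin- and 19.49 and 25.91 CPM in Lin+, within 1.5-fold in both.

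Activin subunits were scarce in progenitors, and Inhba went opposite ways in the fractions. Inhba was 4.758 CPM in control Lin- (103 UMIs) and 8.447 CPM in iAdFASNKO Lin- (102 UMIs), a ratio of 1.78 (1.34 to 2.36). Of the 102 UMIs, 49 lay in 77 of the 2035 progenitors, those with at least 3 of the 8 mural markers present, whereas in control 20 of 103 lay in 150 of 2079. Without those cells the levels were 4.227 and 4.702 CPM, a ratio of 1.11. As a mean over cells the ratio was 0.812, and without the cells that share a barcode it was 1.32. The summed level of the 8 mural markers in Lin- progenitors was 150.9 CPM in control and 220.2 CPM in iAdFASNKO, with none of the markers at 0. In Lin+ Inhba was 4.050 CPM (48 UMIs) and 2.333 CPM (19 UMIs), a ratio of 0.576 (0.320 to 0.999). Inhbb was 5.682 CPM (123 UMIs) and 2.899 CPM (35 UMIs) in control and iAdFASNKO Lin-, a ratio of 0.510 (0.340 to 0.748), and 2.194 and 1.597 CPM in Lin+, on 26 and 13 UMIs.

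Tgfb1 and Tgfb3 were within 1.5-fold in progenitors, except that Tgfb1 in Lin+ had a ratio of 0.650 as a mean over cells. Tgfb1 was 28.50 and 24.10 CPM in control and iAdFASNKO Lin- and 19.74 and 15.11 CPM in Lin+, with ratios of 0.846 and 0.765. Tgfb3 was 21.06 and 21.20 CPM in Lin- and 28.43 and 21.98 CPM in Lin+, with ratios of 1.01 and 0.773.

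**Figure D3:**
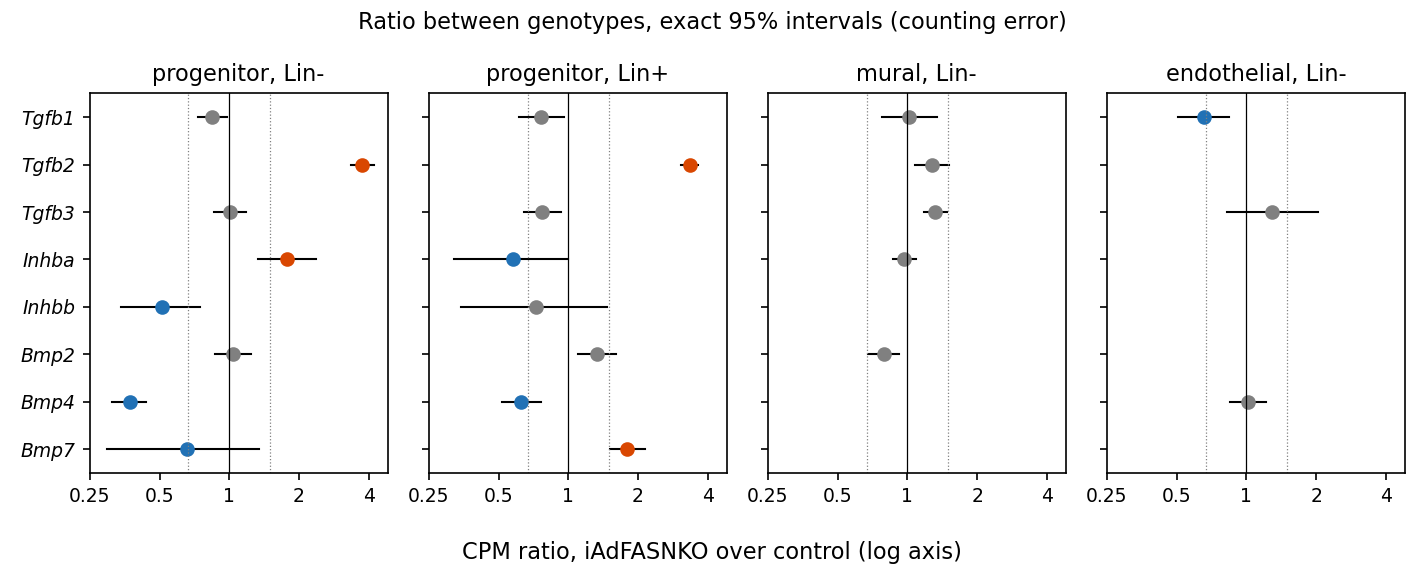
Ratio of CPM in iAdFASNKO over control (log axis) for each measured ligand in progenitors of both fractions and in mural and endothelial cells of Lin-, with exact 95% intervals that cover counting error only; dotted lines mark 1.5-fold, and orange and blue points lie past it. Tgfb2 in progenitors lies near 3.75 and 3.34, Bmp4 at 0.372 and 0.627, and in mural cells every measured ligand lies within 1.5-fold.

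The progenitors were a mix of subsets whose shares differed between the libraries, so the ligands were also read within subsets gated by fixed markers. Interstitial progenitors (Pi16, Dpp4, Cd55, Sema3c, Anxa3), known as early progenitors of the fat septa, made up 35.08% of control and 60.27% of iAdFASNKO Lin+ progenitors and 1.684% and 6.044% in Lin-. Progenitors with Cxcl14 and Smoc2, a set that holds adipogenic genes such as Pparg and Lpl, made up 84.85% and 69.29% in Lin- and 35.31% and 15.48% in Lin+. Progenitors with F3, which encodes CD142 and marks cells known to restrain adipogenesis, made up 4.954% and 7.42% in Lin- and 11.31% and 10.86% in Lin+. The magnetic sort, the depth of each library, differences in the marker genes themselves and the progenitor gate can all set these shares. Of the 1597 cells of the cluster led by Pi16, Sema3c and Dpp4, 659 met no class gate and are not in them.

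Tgfb2 was higher in interstitial cells than in the Cxcl14 and Smoc2 subset in every library, at 117.1 against 26.81 CPM in control Lin+, 315.3 against 75.36 CPM in iAdFASNKO Lin+, 56.67 against 14.82 CPM in control Lin- and 203.5 against 55.06 CPM in iAdFASNKO Lin-. Within interstitial cells of Lin+ the ratio of iAdFASNKO to control was 2.69 (2.44 to 2.98). Within the Cxcl14 and Smoc2 subset it was 3.72 in Lin- (3.20 to 4.32) and 2.81 in Lin+ (2.15 to 3.67). In the CD142 subset the levels were 32.62 and 39.48 CPM in Lin- and 55.02 and 77.03 CPM in Lin+, and the intervals of both ratios, 1.21 and 1.40, hold 1. With the subset shares held at those of control, the ratio was 3.15 in Lin- and 2.51 in Lin+.

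**Figure D4:**
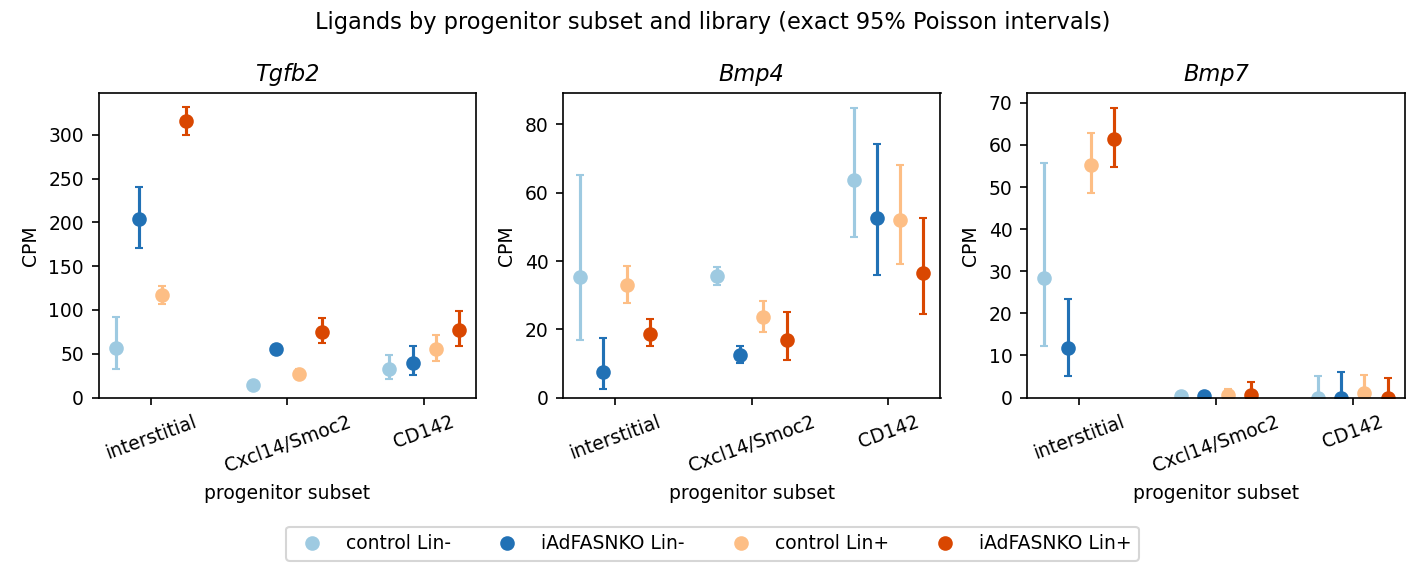
Levels of Tgfb2, Bmp4 and Bmp7 (CPM) in 3 progenitor subsets of each library, 1 point per library, with exact 95% Poisson intervals that cover counting error only. In interstitial cells of Lin+, Tgfb2 stands at 117.1 (control) and 315.3 CPM (iAdFASNKO), and Bmp7 lies at 55.35 and 61.5 CPM in the same cells and below 1 CPM in the Cxcl14 and Smoc2 subset.

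Bmp7 was a ligand of the interstitial subset. In Lin+ it was 55.35 CPM in control (241 of the 250 progenitor UMIs) and 61.5 CPM in iAdFASNKO (306 of 309), and the ratio within this subset, 1.11 (0.936 to 1.32), holds 1. With the subset shares held at those of control, the ratio over all Lin+ progenitors was 1.10. In the Cxcl14 and Smoc2 subset it was 0.2647 to 0.6789 CPM in the 4 libraries, on 1 to 5 UMIs.

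Bmp4 was lower in iAdFASNKO within the Cxcl14 and Smoc2 subset of Lin-, at 35.57 and 12.41 CPM (ratio 0.349, 0.282 to 0.428), and within interstitial cells of Lin+, at 32.84 and 18.69 CPM (0.569, 0.434 to 0.744). In the Cxcl14 and Smoc2 subset of Lin+ it was 23.49 and 16.97 CPM, and in the CD142 subset 63.88 and 52.64 CPM in Lin- and 52.13 and 36.62 CPM in Lin+. The intervals of these 3 ratios hold 1. Inhba was lower in the CD142 subset, at 57.09 and 24.68 CPM in Lin- and 17.38 and 5.051 CPM in Lin+, although 24 of the 42 UMIs in control Lin- came from 1 cell. Tgfb3 was 33.76 and 20.1 CPM in interstitial cells of Lin+, a ratio of 0.595 (0.457 to 0.773), while over all Lin+ progenitors it lay within 1.5-fold.

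In mural cells 5 ligands were measured in the Lin- libraries (330 and 967 cells), and 0 were higher and 0 lower, where 4.21% of all measured genes were higher and 12.4% lower. Tgfb3 was 168.3 CPM in control (450 UMIs) and 222.3 CPM in iAdFASNKO (978 UMIs), a ratio of 1.32 (1.18 to 1.48). Tgfb2 was 77.41 and 98.43 CPM (1.27, 1.08 to 1.51) and Bmp2 116.3 and 91.84 CPM (0.790, 0.679 to 0.918), so these 3 differed by more than counting error and by less than 1.5-fold. Inhba was 176.1 and 170.9 CPM and Tgfb1 32.91 and 33.42 CPM, and the intervals of both ratios hold 1. The stricter cell filter left 23 control and 168 iAdFASNKO mural cells in Lin-, too few to compare, and Tgfb3 was then 205.6 and 203.8 CPM, Bmp2 110.0 and 63.77 CPM and Inhba 272.6 and 205.0 CPM.

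In endothelial cells 3 ligands were measured in the Lin- libraries (104 and 200 cells). Tgfb1 was lower, at 123.5 CPM in control (171 UMIs) and 80.76 CPM in iAdFASNKO (102 UMIs), a ratio of 0.654 (0.507 to 0.840), where 12.3% of all measured genes were lower and 8.37% higher. Scaling the libraries by TMM, the trimmed mean of M-values, took it within 1.5-fold. The clusters gave 121.7 and 80.18 CPM where Prox1 was among the leading genes and 126.5 and 81.81 CPM where Vwf led. Bmp4, the ligand with the highest share of its UMIs in this class, was 187.8 and 191.6 CPM, a ratio of 1.02 (0.853 to 1.22). Tgfb3, the third ligand measured, was within 1.5-fold over the class. In the cluster with Prox1 among its leading genes it was 31.89 CPM in control (38 UMIs) and 51.81 CPM in iAdFASNKO (42 UMIs). That ratio was 1.625 (1.022 to 2.589). The cluster led by Vwf supplied 10 of the 104 control cells and 73 of the 200 iAdFASNKO cells.

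Among immune classes, Tgfb1 was within 1.5-fold in B cells, macrophages, T cells and ILC2, except as a mean over cells, where the ratio was 0.614 in macrophages and 1.81 in ILC2. It was 212.4 and 185.5 CPM in B cells of control and iAdFASNKO Lin+, 222.0 and 179.9 CPM in macrophages, 117.8 and 97.92 CPM in T cells, and 178.7 and 237.2 CPM in ILC2 of Lin-, and each of the 4 intervals of the ratio holds 1. Bmp2 was higher in iAdFASNKO ILC2, at 26.15 CPM (6 UMIs in 56 cells) and 97.30 CPM (16 UMIs in 67 cells), a ratio of 3.72 (1.38 to 11.6), where 22.1% of all measured genes were higher. Leaving out the cell with most Bmp2 UMIs in each library took Bmp2 below the minimum of 20 UMIs. Bmp7 in T cells was 17.78 CPM (16 UMIs) and 10.35 CPM (35 UMIs), counted as lower where 13.8% of all measured genes were, with an interval that holds 1 (0.582, 0.314 to 1.13).

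Within each pool, Bmp7 and Tgfb2 were higher in Lin+ than in Lin- progenitors. The ratio of Lin+ to Lin- was 15.2 for Bmp7 in control (10.4 to 23.0) and 41.7 in iAdFASNKO (23.0 to 84.3), and 3.49 and 3.11 for Tgfb2. Inhba was 0.851 in control, with an interval that holds 1, and 0.276 in iAdFASNKO (0.160 to 0.454). In control, 2 of 8 ligands were higher in Lin+ (12.6% of all measured genes) and 1 of 8, Inhbb, lower (10.0%). In iAdFASNKO, 3 of 8 were higher (Bmp7, Tgfb2 and Bmp2; 19.2% of all measured genes) and 3 of 8 lower (Tgfb1, Inhba and Inhbb; 10.7%). Interstitial cells made up 35.08% of control and 60.27% of iAdFASNKO Lin+ progenitors, against 1.684% and 6.044% in Lin-. Within this subset Bmp7 was 55.35 CPM in Lin+ and 28.33 CPM in Lin- (8 UMIs) in control. In iAdFASNKO it was 61.5 and 11.89 CPM (8 UMIs in Lin-). Tgfb2 within this subset was 117.1 and 56.67 CPM in control and 315.3 and 203.5 CPM in iAdFASNKO. Lin+ progenitors also carried more UMIs of other cells. The summed level of the 5 erythroid markers was 1242 CPM in control and 1995 CPM in iAdFASNKO against 10.02 and 9.772 CPM in Lin-. Cells of the erythroid gate stood at 27.09 CPM for Bmp7 (15 UMIs) and 46.96 CPM for Tgfb2 (26 UMIs), and may include other cells that carry haemoglobin RNA. The part of the subset shares and of the UMIs of other cells in these ligand levels was not tested.

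The other genes of the pathway were read from fixed lists in the same progenitors. In Lin- 11 of 67 measured were higher and 10 lower, and in Lin+ 13 of 66 were higher and 5 lower, where the shares of all genes were 10.9%, 7.53%, 12.6% and 5.3% in that order. With the subset shares held at those of control, 6 were higher in Lin-, and with TMM scaling 11 were lower in Lin+. Of the 9 latency and activation genes measured in Lin- and the 8 in Lin+, 4 were higher in iAdFASNKO in each (10.9% and 12.6% of all genes) and none lower, with a median log2 ratio of 0.28 and 0.64 against 0.03 and 0.13 for all genes. Fbn1, whose product fibrillin-1 holds latent TGF-beta in the matrix, was 460.4 and 809.4 CPM in control and iAdFASNKO Lin- and 1120 and 2098 CPM in Lin+. Ltbp4, a latent TGF-beta binding protein, was 121.0 and 201.0 CPM in Lin- and 113.6 and 247.6 CPM in Lin+. Ltbp2, a related matrix protein, was 2.910 and 5.880 CPM in Lin-, and Itgb8, an integrin chain that can release TGF-beta, 0.6005 and 1.574 CPM on 13 and 19 UMIs.

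Type II receptors were higher in 2 of 4 measured in Lin+, where 12.6% of all genes were, and in 0 of 4 in Lin-, where 10.9% were. Tgfbr2, the TGF-beta receptor, was 422.6 and 637.5 CPM in Lin+ (ratio 1.51, 1.45 to 1.57). Acvr2b, an activin receptor, was 6.159 and 9.333 CPM (ratio 1.515, 1.085 to 2.119). Both lay just past the threshold, and the TMM shift of -0.15 in log2 ratio in Lin+ progenitors took both within 1.5-fold. Of 5 type I receptors measured in each fraction, Acvrl1 (ALK1) alone passed 1.5-fold, in Lin-, at 87.16 and 50.93 CPM. Among 5 co-receptors, Bambi, a decoy without a kinase, was lower in Lin- at 4.388 and 2.070 CPM and higher in Lin+ at 3.797 and 6.386 CPM.

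Of the 13 extracellular inhibitors measured in each fraction, 3 were higher and 3 lower in Lin- (10.9% and 7.53% of all genes), and 0 higher and 2 lower in Lin+ (12.6% and 5.3%). Chrdl1, a chordin-like BMP inhibitor, was 20.51 and 42.65 CPM in Lin-. Chrd (Chordin) was 9.007 and 5.466 CPM in Lin-. Bmper was 124.1 and 80.33 CPM in Lin- and 62.52 and 39.79 CPM in Lin+. Dcn, a proteoglycan that can bind TGF-beta, was 16530 and 10280 CPM in Lin-. Nog, with 37 and 31 UMIs, passed 1.5-fold in Lin- with an interval that holds 1.

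Of 7 BMP target genes measured, 3 were lower in Lin- (7.53% of all genes) and 2 in Lin+ (5.3%), and none was higher. Msx1 was 38.62 and 20.29 CPM in Lin- (ratio 0.525, 0.454 to 0.607) and 57.29 and 33.04 CPM in Lin+ (0.577, 0.499 to 0.665). Id1 was 8.823 and 4.389 CPM in Lin-, and in Lin+ 5.484 and 3.561 CPM with an interval that holds 1. Smad6, an inhibitory SMAD that BMP induces, was 5.589 and 2.733 CPM in Lin-. The list's median log2 ratio was -0.22 in Lin- and -0.17 in Lin+. TGF-beta targets past 1.5-fold did not all go one way. Of 8 measured in Lin-, Ltbp2 and Ctgf (20.83 and 31.97 CPM) were higher and Tgfbi (219.2 and 102.0 CPM) lower. Of 7 in Lin+, 0 passed 1.5-fold either way. The median log2 ratio of the TGF-beta targets was -0.16 in Lin- and -0.18 in Lin+, near that of the BMP targets.

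The list of other superfamily ligands also held Bmp1, which encodes a protease and was within 1.5-fold in both fractions. Of its 11 genes measured in Lin- progenitors, 3 were higher and 1 lower. Of 11 in Lin+, 6 were higher and 1 lower, against the same shares of all genes. The 1 lower in Lin- was Gdf9, on 25 and 9 UMIs, with an interval that holds 1. Bmp8a was 0.1848 and 2.816 CPM in Lin- (4 and 34 UMIs) and 4.725 and 14.74 CPM in Lin+ (56 and 120 UMIs). Gdf15, a stress-induced ligand, was 2.494 and 6.791 CPM in Lin- and 1.097 and 2.947 CPM in Lin+, and Bmp3 1.155 and 2.567 CPM and 2.531 and 6.386 CPM. Gdf6 was lower in Lin+, at 2.531 and 0.7369 CPM on 30 and 6 UMIs.

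In mural cells, where 12.4% of all measured genes were lower, 3 of 10 inhibitors and 1 of 7 BMP targets were lower, the latter near the share of all genes, and none was higher. Fst, which encodes follistatin, the activin-binding inhibitor, was 109.2 CPM in control (292 UMIs) and 37.73 CPM in iAdFASNKO (166 UMIs), a ratio of 0.346 (0.284 to 0.420). Chrdl1 was 29.17 and 15.00 CPM, Nbl1 158.9 and 101.8 CPM, and the BMP target Id4 233.3 and 118.0 CPM. The activin subunit Inhba was 176.1 and 170.9 CPM in the same cells, as given above. In endothelial cells, where 8.37% of all measured genes were higher and 12.3% lower, 1 of 8 latency and activation genes was higher and 4 lower, among them Thbs1 at 61.40 and 26.13 CPM, while the BMP target Id2 was 33.23 and 57.01 CPM.

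The same edgeR test was read for the receptors and the other lists. In progenitors (29.5% of all genes) it called 4 of 4 tested type II receptors, 3 of 5 type I receptors, 11 of 13 extracellular inhibitors and 7 of 10 latency and activation genes above the other classes. In mural cells (27.9%) it called 2 of 4 type II and 3 of 5 type I receptors, 10 of 13 inhibitors, 6 of 7 BMP targets and 6 of 8 TGF-beta targets. In endothelial cells (22.1%) it called 3 of 4 type II receptors, 3 of 5 type I receptors, 5 of 5 co-receptors and 5 of 7 BMP targets. Schwann cells (19.6%) had 2 of 4 type II receptors, 2 of 5 type I receptors and 3 of 5 co-receptors called, and macrophages (21.6%) 2 of 4 type II receptors and 1 of 5 type I receptors.

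The genes whose levels were most like each ligand's over the 16 classes were found by Pearson correlation of log2(CPM + 1) among 14323 genes. The classes share 4 libraries and differ in depth, so the coefficients are descriptions. For Tgfb1 they were Tbk1 (0.92), Gm13212 (0.91) and Ptbp3 (0.90), for Tgfb2 Adamtsl1 (0.90), Cped1 (0.87) and Gm9780 (0.86), and for Tgfb3 Trpc1 (0.91), Phldb2 (0.91) and Gucy1a1 (0.90). For Inhba they were Itga7 (0.88), Pcdh1 (0.87) and Sort1 (0.87), and for Inhbb Efna4 (0.99), Steap1 (0.97) and Tpd52l1 (0.96). For Bmp2 they were Myl1 (0.80), Fam110b (0.80) and Vipr2 (0.79), for Bmp4 Nsg1 (0.97), Gm10605 (0.97) and Hoxb6 (0.97), and for Bmp7 Socs1 (0.86), Neb (0.77) and Slc6a13 (0.75). The highest coefficients were those of Inhbb and Bmp4, each led by a single class.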

How the data were processed

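Single-cell RNA from 4 libraries (10x 3' kit) was deposited by the authors as raw UMI counts per gene and barcode, 1 matrix per genotype with the fraction in the barcode's tag. The genotype of a matrix was read from its name. Per the submitters' processing notes, Cell Ranger 3.1.0, Seurat 3.0 and mm10 were used. Gene coordinates came from GENCODE M21 on the same build.

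Barcodes under 300 genes or 500 UMIs, or over 10% mitochondrial, were left out, and doublets called by Scrublet in scanpy 1.11.5 (expected rate 0.06) were removed, 0.935% to 2.22% of a library. A marker was on at 10% or more of the mean of the top 1% of cells, and this threshold was set after seeing the data. The gate and Leiden clusters gave the same name to 94.805% of gated cells in named clusters. Subsets needed 2 markers. UMIs were summed per class and library and given as CPM of the class total with exact Poisson intervals, ratios with exact conditional binomial intervals, and shares of cells as they stand. Genotypes were compared in classes with at least 50 cells in both libraries.

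Classes were compared with edgeR 4.0.16 (quasi-likelihood, pool as a block, Benjamini-Hochberg over all genes tested) in R 4.3.3, and with DESeq2 1.42.0 as an alternative. The procedures were tested on simulated data. The pools are the samples of that test, and pool and genotype are the same term, fitted as a block. Its p-values therefore measure only how far the differences between classes varied between 2 pools, not the spread between mice. The members, lists and rules were chosen with earlier results of these data known. The text names all 8 ligands, up to 3 highest and 3 lowest genes past 1.5-fold of a pathway list, and the 3 genes most like each ligand. A gene of the inhibitor list that the rule names is not reported here.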

Additional observations from a re-analysis of the deposited data

Results flagged for a closer look

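Inhba in progenitors was higher in iAdFASNKO than in control in Lin- (ratio 1.775) and lower in Lin+ (0.5762). Bmp7 in progenitors went the other way, with a ratio of 0.6574 in Lin- and 1.799 in Lin+. The Lin- interval of Bmp7 (0.297 to 1.35) holds 1, and its Lin+ ratio was 1.10 at the control's subset mix. Inhba in Lin- was 1.11 without the progenitors that hold mural markers and 0.812 as a mean over cells. With 1 library per genotype and fraction, the difference between the fractions was not tested for either gene.

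The cells that met no class gate, which enter no comparison of classes, carried 3 ligands at a higher level than all kept cells did, with counting intervals that did not overlap. Tgfb2 was 94.17 CPM in these cells against 63.98 CPM, Bmp2 28.05 CPM against 23.47 CPM and Bmp7 40.9 CPM against 12.73 CPM. Of the UMIs in ungated cells, 75.6% for Tgfb2, 71.91% for Bmp2 and 86.24% for Bmp7 lay in the cluster led by Pi16, Sema3c and Dpp4.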

How the results depend on the processing

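No paired analysis was possible because each genotype and fraction is 1 library. Of the ligand ratios recomputed, 375 moved by less than their counting interval, 14 moved by more, and 2 that were past 1.5-fold changed direction: Inhba in Lin- progenitors as a mean over cells (0.812) and Bmp7 in T cells with the stricter cell filter (1.162). Of ratios within 1.5-fold, Inhbb in Lin+ progenitors was 1.485 with Leiden classes and 1.365 with the looser gate, and Bmp7 in ILC2 1.527 as a mean over cells, against 0.728 and 0.903. In Lin- progenitors the count of higher ligands was 1 as a mean over cells, at 2-fold, without shared barcodes, without cells with mural markers and at the control's subset mix, Tgfb2 each time, and that of lower ligands was 1 (Bmp4) with Leiden classes and at 2-fold. In Lin+ progenitors 1 ligand, Tgfb2, was higher at 2-fold and at the control's subset mix, and lower ligands were 0 with Leiden classes, the looser gate and 2-fold and 1 (Bmp4) without shared barcodes. In mural cells without a UMI minimum 1 was higher and 2 lower. In endothelial cells lower ligands were 0 under TMM and at 2-fold, and higher ones 1 with Leiden classes and 2 without a minimum. In ILC2 higher ligands were 3 as a mean over cells and without a minimum, and 0 without the top cell and at a minimum of 50 UMIs. In T cells lower ligands were 0 with the stricter cell filter, the stricter gate and 2-fold and 3 without a minimum, which also gave 2 higher. Other pathway genes higher in Lin- progenitors were 23 without a minimum and 6 at the control's subset mix, against 11, and those lower in Lin+ were 11 under TMM, 12 without a minimum and 3 at the control's mix, against 5. TMM shifted the log2 ratios by -0.15 in Lin+ progenitors. Ligands called above the other classes in Schwann cells were 0 with looser or stricter cell filters, doublets kept and the stricter gate and 2 with Leiden classes. In T cells 1 was called with the 4 libraries as samples. Leaving out each library in turn gave 0 to 1 in Schwann cells, 0 to 1 in T cells and 1 to 2 in macrophages. The cause of these changes was not tested. Few UMIs limit Inhbb, Bmp7 in Lin- and every ligand in ILC2. Looser gate, shared barcodes, subset mix and mural-marker cells were chosen after seeing the data.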
